A study of Homo sapiens with 8 samples.

Results

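Upstream open reading frames (uORFs) of 7 stress genes were examined in ribosome profiling (Ribo-Seq) of Caco-2, a long-used line from a human colon cancer whose cells come to resemble absorptive enterocytes once they are left to differentiate. Ribo-Seq sequences the RNA fragments that ribosomes shield from nuclease. The genes were ATF4, ATF5, DDIT3, PPP1R15A, PPP1R15B, XBP1 and IFRD1, and every small open reading frame (smORF) that the annotation assigned to one of them was taken. This gave 7 of the 24199 smORFs in the count table, with 2 in ATF5, 2 in PPP1R15A and 3 in PPP1R15B. ATF4, DDIT3, XBP1 and IFRD1 had 0 smORFs each, and no smORF of the table lay over their annotated exons on the same strand.

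The 8 libraries fell into 4 groups of 2: undifferentiated cells, a differentiated control without micelles, and differentiated cells with either micelles without lipid, made of the bile salt taurocholate, or lipid micelles made with BSA, oleic acid and cholesterol. The micelle groups are called without lipid and with lipid for short. All were of the same cell line with no genetic change, and cycloheximide, which halts elongating ribosomes, was in the wash and the lysis buffer of all groups. The smORF list was built by the study over several intestinal cell lines and blood cells, so membership does not say that a frame was scored in Caco-2 cells. Library totals ran from 506382 to 884711 smORF counts, and the log2 values of the 2 replicates of a group correlated at 0.883 to 0.920 across smORFs. Nothing in the labels says that the replicates were separate cultures, so p-values measure the spread between these libraries.

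Phosphorylation of the translation factor eIF2 lowers the supply of initiation complexes in stressed cells, and most mRNAs are then translated less. A small set of mRNAs is instead translated more, because short frames in their 5′ leaders hold ribosomes away from the main frame when initiation complexes are plentiful and are bypassed when they are scarce. ATF4, ATF5 and DDIT3 (CHOP) are transcription factors of this response, and PPP1R15A (GADD34) and PPP1R15B (CReP) are the regulatory subunits that bring protein phosphatase to eIF2 and so end or restrain it.

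The 7 smORFs all had the location class uORF, which made up 69.9% of all smORFs, and 6 of the 7 began with ATG, against 43.4% of all smORFs. None lay in a repeat, none overlapped a smORF of another gene, and the reference genome (hg38) held the deposited sequence of all 7. Each ended at a stop codon, and all lay whole within the leader. The starts are shown with the 9 bases before them, 5′ to 3′, the start codon being in capitals. They serve to show which ATG frame of the reference leaders, if any, each smORF matched.

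IEC_10715 (ATF5): gaaagagaaATGaactggtgcaggt
IEC_10716 (ATF5): gggaagagaATGaggctggatcctc
IEC_00109 (PPP1R15A): gttgatcttATGcaagacgctgcac
IEC_00110 (PPP1R15A): gagggtgagATGaacgcgctggcct
IEC_16623 (PPP1R15B): ctcctatccATGgtgttgaagcgtc
IEC_16622 (PPP1R15B): cccgccaggATGgaagtcgcatcag
IEC_16621 (PPP1R15B): ATTttgggcttcgctt

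Counted from the A of ATG as base 1, a purine 3 bases before the start and a G right after it mark a favourable start in mammalian mRNAs. IEC_16622 held both, as did 20.95% of the 9384 ATG smORFs that could be placed once in their transcript. IEC_16623 held the G alone. IEC_10715, IEC_10716 and IEC_00110 held the purine alone, and IEC_00109 held neither. IEC_16621 started at the first base of its transcript and had no base before it.

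The reference leaders were read for ATG frames in the MANE Select transcript of each gene, the transcript agreed between the main human annotations. Of the 7 genes, 6 had a MANE Select transcript in the annotation used, and these held 12 upstream ATG frames. The table held 4 of the 12. Another 3 were shorter than 6 codons, the length of the shortest smORF in the table, and the remaining 5 lay at least in part over annotated coding sequence on the same strand, while the study kept smORFs clear of known coding regions. The 4 frames that were long enough and clear of coding sequence were the 4 in the table. This holds for the MANE Select leaders alone. In other annotated coding transcripts, 18 upstream ATG frames of 5 of the genes were at least 6 codons long, clear of coding sequence and not in the table, among them a 53-codon frame of ATF4, a 35-codon frame of IFRD1 and a 19-codon frame of ATF5, so length and coding overlap do not account for every frame that is absent.

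**Figure D1:**
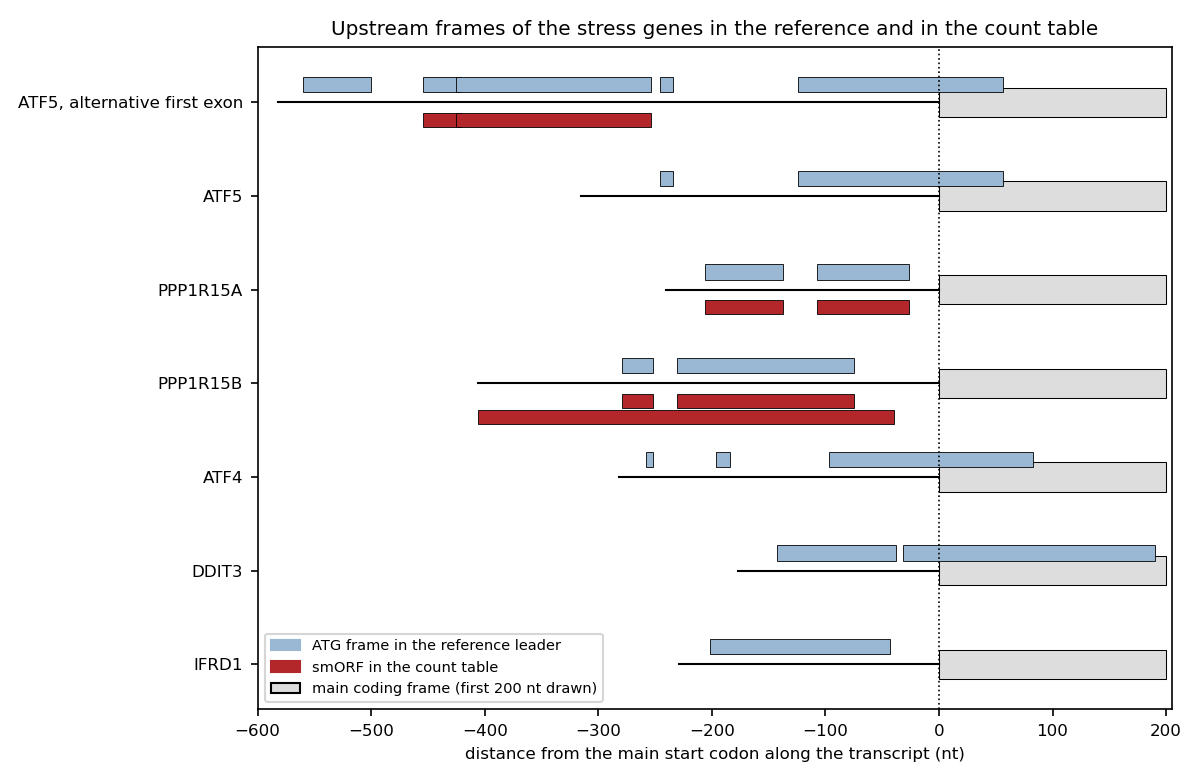
Upstream ATG frames of the reference leaders (blue, above each line) and smORFs of the count table (red, below), by distance in nt from the main start codon. The line is the leader and the grey box the first 200 nt of the main frame. The 4 red boxes of PPP1R15A and PPP1R15B with a blue box above them start and end with it, the pair of red boxes of ATF5 lies on the longer leader alone, and ATF4, DDIT3 and IFRD1 have no red box. XBP1 is not drawn, since none of its transcripts was marked as MANE Select.

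ATF4 is the central transcription factor of the response. Its leader of 282 nt held frames of 1, 3 and 59 codons, the last of which runs over the main start in another frame and is the inhibitory frame of the textbook model. Of the 177 nt of the 59-codon frame, 80 lay over annotated coding sequence. DDIT3, a factor linked to cell death after long stress, held frames of 34 and 73 codons in 177 nt. All 102 nt of its 34-codon frame, the known uORF, lay over sequence that another annotated transcript counts as coding. IFRD1, a transcriptional coregulator whose uORF is tied to decay of its mRNA, held a frame of 52 codons, all 156 nt of which lay over annotated coding sequence. XBP1, whose mRNA is spliced by the ER stress sensor IRE1, held an upstream ATG frame in 1 of 4 complete coding transcripts, of 26 codons and overlapping the main start. The counts therefore give no value for these 4 genes, and a missing smORF here says nothing about whether ribosomes sat on these frames.

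PPP1R15A is the stress-induced phosphatase subunit. Its smORFs were the textbook pair. IEC_00109, at chr19:48872455-48872520 on the plus strand, was 22 codons long and had the start and stop of the first ATG frame of the MANE Select leader, and IEC_00110, at chr19:48872554-48872631, was 26 codons long and had those of the second. Between the stop of the first and the main start lay 137 nt, and after the stop of the second 26 nt. Both were held by 4 of the 5 annotated transcripts, in 3 of them upstream of the main start of a complete coding transcript.

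The count of IEC_00109 was 68 and 60 in undifferentiated cells, 55 and 57 in differentiated control cells, 51 and 64 without lipid, and 57 and 80 with lipid. In CPM, which is the count relative to the scaled smORF total of the library, this was 107 ± 0.17 (SD, n = 2) in undifferentiated cells, 90.8 ± 23.6 in control cells, 90.5 ± 2.81 without lipid and 88.9 ± 5.98 with lipid. The 3 differentiated groups lay within 2 CPM of each other, and the control libraries, at 108 and 74.1 CPM, spanned all the others.

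IEC_00110, the frame nearer to the main start, had counts of 44 and 46 in undifferentiated cells, 60 and 59 in control cells, 28 and 52 without lipid, and 56 and 88 with lipid. Its level was 75.4 ± 8.91 CPM in undifferentiated cells, 97.0 ± 28.7 in control cells, 61.3 ± 14.9 without lipid and 92.8 ± 13.6 with lipid. The libraries without lipid, at 50.8 and 71.9 CPM, lay below those of control cells, at 117 and 76.7, and below those with lipid, at 83.2 and 102.

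PPP1R15B is the phosphatase subunit made in unstressed cells. On the minus strand of chromosome 1 its leader of 406 nt held an 8-codon ATG frame followed by a 51-codon one, and both were in the table with the same starts and stops. These were IEC_16623, at chr1:204411667-204411690, and IEC_16622, at chr1:204411490-204411642. IEC_16621, at chr1:204411455-204411817, began with ATT at the first base of the transcript, ran for 121 codons in another frame and contained both, and it matched no ATG frame of the reference. Of all smORFs, 1.81% were at least that long and 7.13% had 8 codons or fewer.

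IEC_16621 had the most counts of the 7, with 284 and 286 in undifferentiated cells, 316 and 471 in control cells, 331 and 470 without lipid, and 521 and 640 with lipid. Its level was 477 ± 43.8 CPM in undifferentiated cells, 615 ± 3.66 in control cells, 625 ± 35.2 without lipid and 760 ± 20.5 with lipid. The undifferentiated libraries were the 2 lowest of the 8 and the lipid libraries the 2 highest, while control cells and cells without lipid overlapped.

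IEC_16622 had 189 and 164 counts in undifferentiated cells, 212 and 302 in control cells, 207 and 312 without lipid, and 324 and 473 with lipid. The level was 294 ± 3.94, 404 ± 15.3, 403 ± 39.7 and 516 ± 49.0 CPM in that order of groups. This is the same order as that of IEC_16621, and the 2 are not independent, since reads of the shorter frame also count for the longer one. IEC_16622 held between 57.3% and 73.9% of the IEC_16621 count in the 8 libraries, on 153 of its 363 nt.

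IEC_16623 had 18 and 27 counts in undifferentiated cells, 23 and 21 in control cells, 31 and 29 without lipid, and 34 and 32 with lipid, or 38.1 ± 13.9, 36.1 ± 12.5, 48.2 ± 11.4 and 43.9 ± 9.37 CPM. All 4 groups overlapped. Once the counts of both ATG frames were taken from those of IEC_16621, 77 to 163 counts a library were left over 186 nt. Per length, IEC_16622 was 2.10 to 4.26 times as dense as these remaining bases, and denser in 8 of 8 libraries. A read at an edge may be counted for both frames or for neither, and this was not resolved.

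ATF5 is a transcription factor related to ATF4, and its known uORFs are a short frame followed by one that overlaps the main start. The MANE Select leader of 315 nt held exactly such a pair, with 3 and 59 codons, and neither was in the table. The start windows of that pair were as follows, to set beside those of the smORFs above.

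ATF5 3-codon frame, chr19:49929274: gccccggccATGgctctgtagcctc
ATF5 59-codon frame, chr19:49929396: gctgcagccATGgagtcttccactt

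The 3-codon frame was under the shortest smORF length, and 53 of the 177 nt of the 59-codon frame lay over coding sequence. Both smORFs of ATF5 lay farther upstream, in a leader of 582 nt that 1 of 5 annotated transcripts has through another first exon. That leader held 5 ATG frames, of which the smORFs were the second and the third, and the pair of the MANE Select leader were the last 2. IEC_10715, at chr19:49928830-49928859 on the plus strand, had 10 codons and no base in the MANE Select transcript. IEC_10716 had 56 codons in 2 exons, with 148 nt at chr19:49928859-49929006 and 20 nt at chr19:49929243-49929262, and those 20 nt were also part of the MANE Select leader. The stop codon of the first smORF and the start codon of the second shared bases, as shown here with the shared run in capitals.

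ATF5, end of IEC_10715 and start of IEC_10716: tgcgggaagagaATGAggctggatcctc

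In IEC_10715 there were 0 and 4 counts in undifferentiated cells, 6 and 6 in control cells, 10 and 11 without lipid, and 8 and 13 with lipid. It reached 10 counts in 3 of 8 libraries, and the 0 of the undifferentiated library allows a level of up to 4.71 CPM. The level was 3.55 ± 5.03 CPM in undifferentiated cells, 9.77 ± 2.78 in control cells, 16.7 ± 2.07 without lipid and 13.5 ± 2.30 with lipid. Such counts cannot separate levels that differ by less than their large counting error.

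IEC_10716 had 16 and 9 counts in undifferentiated cells, 24 and 23 in control cells, 27 and 46 without lipid, and 27 and 48 with lipid. The level was 20.6 ± 6.47 CPM in undifferentiated cells, 38.4 ± 12.02 in control cells, 56.3 ± 10.4 without lipid and 48.0 ± 11.2 with lipid. Both undifferentiated libraries, at 25.1 and 15.99 CPM, lay below the 6 differentiated ones, of which the lowest was at 29.9 CPM, and the 3 differentiated groups ranged up to 63.6 CPM, with lipid overlapping each of the others.

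**Figure D2:**
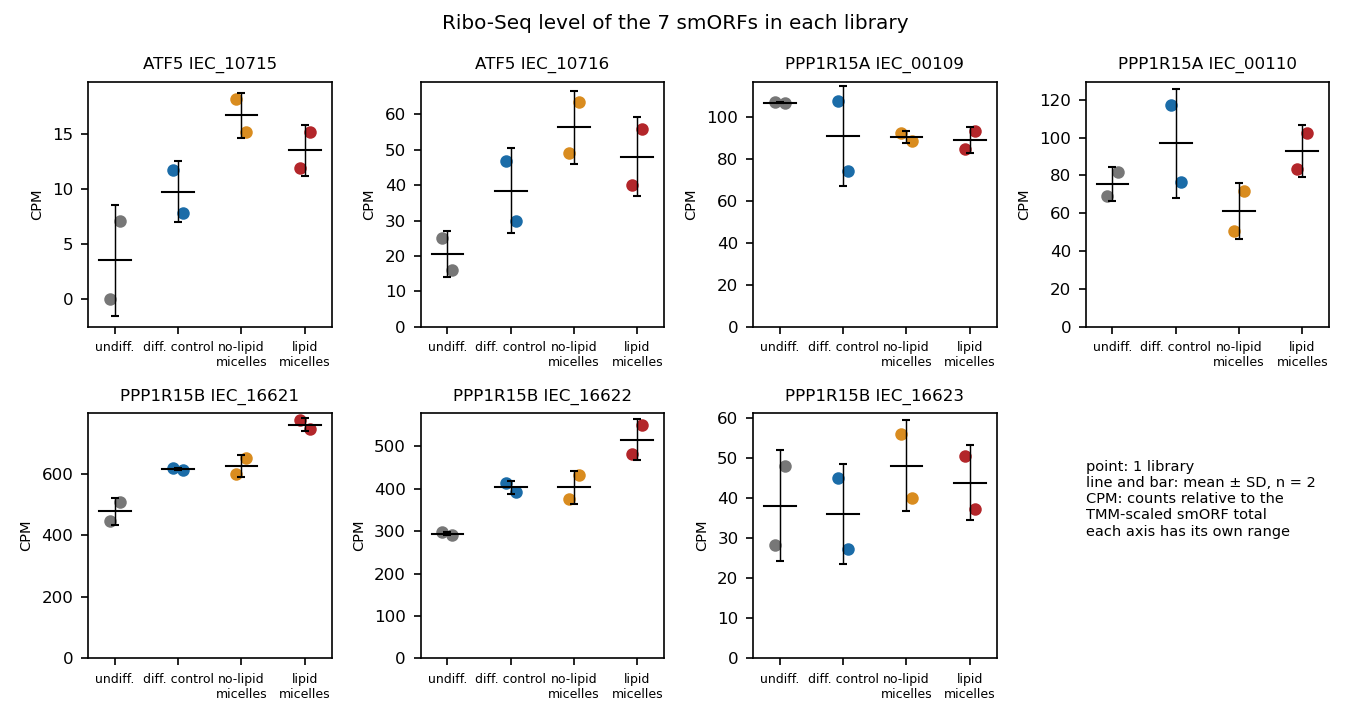
Level of each smORF in CPM (y axis, its own range in each panel and starting at 0 or, for IEC_10715, below it so that the SD can be drawn) in the 4 groups (x axis). Points are libraries, and the line and bar are the mean ± SD of 2. Both PPP1R15B frames IEC_16621 and IEC_16622 lie lowest in undifferentiated cells and highest with lipid micelles, IEC_00110 lies lowest without lipid, and the control libraries of PPP1R15A lie far apart.

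Per length, the frames of the phosphatase subunits were dense and those of ATF5 were not. Averaged over the 8 libraries, IEC_16622 stood at 264 CPM per 100 nt, IEC_16623 at 173, IEC_16621 at 171, IEC_00109 at 143 and IEC_00110 at 105, against a median of 32.6 over the 15182 smORFs tested. IEC_10715 was at 36.3 and IEC_10716 at 24.3 CPM per 100 nt. This placed the PPP1R15 frames between the 83.6 and 94.9 percentiles of the smORFs tested, and the ATF5 frames at 53.9 and 39.6. The value of IEC_16621 includes reads of both ATG frames inside it. Its remaining 186 nt stood at 65.1 to 130 CPM per 100 nt. How far edge reads alter the values of the shortest frames, IEC_16623 with 24 nt and IEC_10715 with 30 nt, was not resolved.

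The deposited scores, given per smORF and not per library, ordered the frames otherwise. The RibORF score combines read coverage with the 3-base step of translating ribosomes. The deposited value is a maximum, and which cells gave it is not stated. It was 1.043 for IEC_10716 and 1.041 for IEC_00110, above 97.2% and 96.5% of all smORFs. The other scores were 0.911 for IEC_10715, 0.890 for IEC_16622, 0.888 for IEC_16623, 0.858 for IEC_00109 and 0.769 for IEC_16621, with a median of 0.876 over all smORFs. In PhyloCSF, higher scores mark coding-like change between species. The mean score was −1.533 for IEC_00110 and −3.028 for IEC_16622, above 93.3% and 89.0% of smORFs, and from −6.226 to −9.182 for the other 5. The highest score within the frame was 8.219 for IEC_00110 and 3.616 for IEC_16622, and from −6.944 to −1.3 for the other 5.

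The first contrast set differentiated control cells against undifferentiated ones. For its mass spectrometry samples of Caco-2, the paper kept the differentiated cells longer in culture and then overnight without serum. Whether the Ribo-Seq cultures were handled alike was not established here. Time in culture and serum, if they differed, cannot be told apart from differentiation. The words "with differentiation" below name this contrast. All 7 smORFs passed the filter on low counts and were tested with edgeR among 15182, and 0 of the 7 were called at an adjusted p under 0.05 and a change of at least 2-fold, where 33.3% of all smORFs tested were called. None of the 7 reached an unadjusted p under 0.05, against 7076 of all smORFs, and DESeq2 also called 0 of the 7. The adjusted p-values of the 7 ran from 0.122 to 0.863. In bulk libraries a change in a few cells and a change in all of them cannot be told apart, nor can ribosomes per mRNA and the amount of mRNA, since RNA sequencing was not analysed here.

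The largest fitted changes with differentiation were those of ATF5. IEC_10716 had a log2 fold change of 0.85 ± 0.42 (SE), with a 95% interval of −0.04 to 1.73 and an adjusted p of 0.122 by edgeR. For IEC_10715 the log2 fold change was 1.45 ± 0.91, from −0.47 to 3.36, with an adjusted p of 0.224. The latter depended on 1 library: without undifferentiated replicate 2 the log2 fold change was 5.71 and the smORF was called, at an adjusted p of 0.0372, and the undifferentiated library that remained had 0 counts, so that this value depends on the prior count of the fit.

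For PPP1R15B, the log2 fold change with differentiation was 0.45 ± 0.24 for IEC_16622, with an interval of −0.04 to 0.95 and an adjusted p of 0.139, and 0.37 ± 0.23 for IEC_16621, from −0.12 to 0.85. Both intervals ended below a doubling. That of IEC_16623 was −0.10 ± 0.40. In PPP1R15A, IEC_00109 had −0.25 ± 0.28 and IEC_00110 0.35 ± 0.31, with intervals of −0.84 to 0.34 and −0.31 to 1.00. The control libraries lay apart here, and without differentiated control replicate 2 the value of IEC_00109 was 0.05 and that of IEC_00110 was 0.68, neither of them called. In 4 of the 7 smORFs the 2 control libraries lay above both undifferentiated ones, and in 0 they lay below both. Over all smORFs tested the groups did not overlap in 69.4%. Such shares over all smORFs, here and below, hold both directions. IEC_16621 and IEC_16622, which share reads, were counted separately. The median log2 fold change of the 7 was 0.37 and that of all smORFs tested 0.01.

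**Figure D3:**
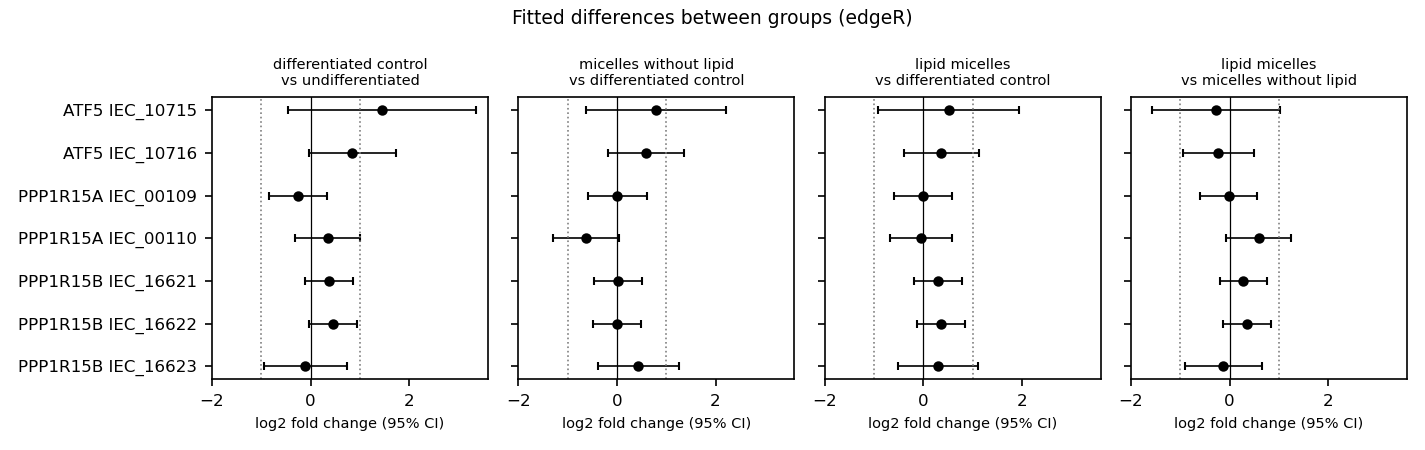
Fitted log2 fold change (x axis, point) with its 95% interval (bar) for each of the 7 smORFs (y axis) in the 4 contrasts, from edgeR. Dotted lines mark a 2-fold change. Every interval includes 0, the widest being those of IEC_10715.

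Micelles without lipid were compared with control cells to see the effect of the bile salt carrier. No smORF of all 15182 was called by edgeR (0.0%), with 619 at an unadjusted p under 0.05, none of them one of the 7, and DESeq2 called 2, again none of the 7. With a replicate block, which pairs the differentiated libraries by number, 15 were called and none of the 7. The second PPP1R15A frame, IEC_00110, had a log2 fold change of −0.63 ± 0.31, an interval of −1.29 to 0.03 and an adjusted p of 1.00. Both ATF5 frames had positive values, 0.59 ± 0.37 for IEC_10716 and 0.79 ± 0.68 for IEC_10715. The frames of PPP1R15B with the most counts stood at 0.02 ± 0.23 for IEC_16621 and 0.00 ± 0.23 for IEC_16622, and their intervals, of −0.46 to 0.51 and −0.49 to 0.49, leave out a change of 2-fold in either direction. The groups did not overlap for 3 of the 7 (both ATF5 frames higher, IEC_00110 lower) and for 32.1% of all smORFs.

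Lipid micelles were set against the same control cells. Again 0 smORFs were called by edgeR (0.0%), 708 had an unadjusted p under 0.05 with none of the 7 among them, and DESeq2 called 0. The replicate block gave 1 call, not one of the 7. The log2 fold change was 0.36 ± 0.23 for IEC_16622, from −0.13 to 0.84, and 0.30 ± 0.23 for IEC_16621, from −0.18 to 0.79, both with an adjusted p of 0.957. Of the PPP1R15A frames, IEC_00109 stood at −0.01 ± 0.28 and IEC_00110 at −0.04 ± 0.30, and both intervals ended short of a 2-fold change on either side. IEC_10716 had 0.37 ± 0.36. The groups did not overlap for 3 of the 7, all higher with lipid, and for 35.9% of all smORFs.

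The last contrast set the 2 kinds of micelle against each other, and it shares its libraries with the contrasts before it. The lipid micelles were made with BSA as well, so effects of BSA, oleic acid and cholesterol cannot be told apart here. No smORF was called by edgeR (0.0%), 624 had an unadjusted p under 0.05 with none of the 7 among them, and DESeq2 called 0. With the replicate block 14 were called and none of the 7. IEC_00110 had a log2 fold change of 0.59 ± 0.31, from −0.06 to 1.24, at an adjusted p of 0.999. IEC_16622 had 0.35 ± 0.23 and IEC_16621 0.28 ± 0.23, and both ATF5 frames were below 0, at −0.23 ± 0.35 for IEC_10716 and −0.28 ± 0.62 for IEC_10715. The groups did not overlap for 4 of the 7, 3 higher and 1 lower with lipid, and for 32.7% of all smORFs.

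Within a leader, the share of counts in each frame does not depend on library size. In PPP1R15A the second frame took 39.3% and 43.4% of the counts of both frames in undifferentiated cells, 52.2% and 50.9% in control cells, 35.4% and 44.8% without lipid, and 49.6% and 52.4% with lipid. The 4 libraries of control cells and of cells given lipid thus lay above the 4 others. The group means were 41.3 ± 2.91%, 51.5 ± 0.93%, 40.1 ± 6.64% and 50.97 ± 1.996%. Each share rests on 79 to 168 counts, and the Wilson 95% intervals of all 8 libraries overlapped, from 25.8% to 46.4% for the lowest and from 44.9% to 59.8% for the highest. With 2 libraries a group, no exact permutation test over libraries can reach a p under 0.05 between a pair of groups. The shares were not tested.

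In ATF5 the first frame took 0.0% and 30.8% of the counts of both frames in undifferentiated cells, on 16 and 13 counts. The 6 differentiated libraries lay between 19.3% and 27.0%, on 29 to 61 counts. The Wilson intervals of all 8 libraries overlapped, and the groups were not tested against each other. The share of IEC_16622 in IEC_16621 was highest in lipid micelles replicate 2, at 73.9% with an interval of 70.4 to 77.2%, and was 62.2% in the other lipid library, so the group with the highest mean, 68.0 ± 8.29%, also had the widest spread.

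**Figure D4:**
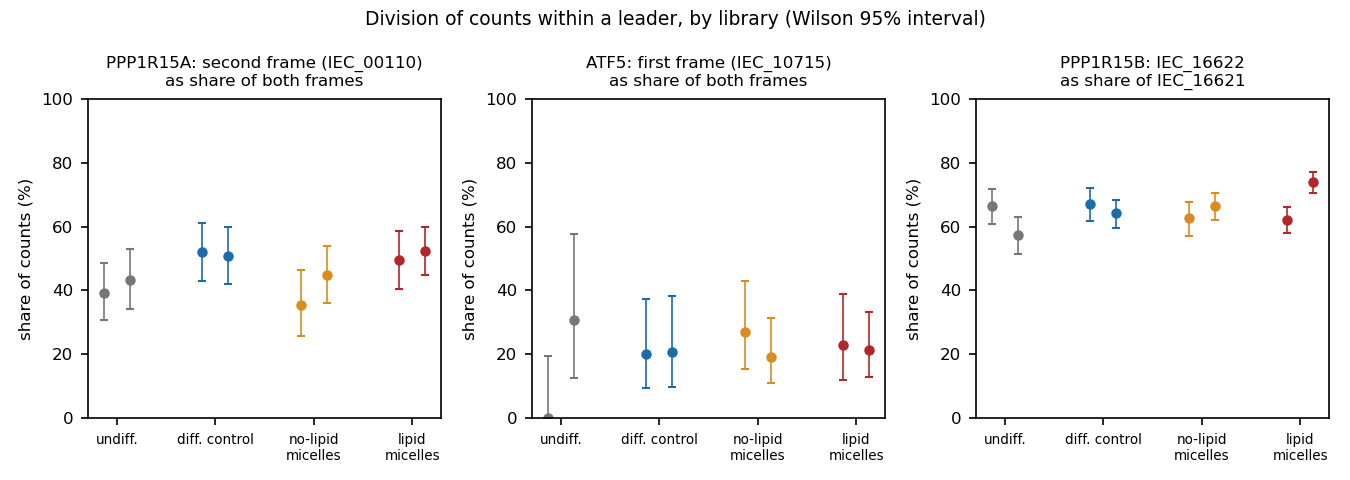
Share of counts in percent (y axis) of 1 frame within a leader, by library and group (x axis), with Wilson 95% intervals for counting error alone. For PPP1R15A the control and lipid libraries lie between 49.6% and 52.4% and the other 4 between 35.4% and 44.8%, and the intervals overlap.

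Genes of the pathway and further genes with regulatory uORFs were followed through 4 lists. These are to be read against the 33.3% of all smORFs tested that were called with differentiation, 17.7% higher and 15.6% lower. In a separate fit with 1 smORF for each group of overlapping ones, 2309 of 6657 were called. The list counts below with 1 smORF for each such group take their calls from the main fit instead. The list of eIF2 subunits, kinases and exchange factors had 5 smORFs tested in 2 genes, and 2 of them, both in EIF2S1, fell with differentiation. With overlapping frames counted once this is 1 of 2, and so few smORFs cannot be set apart from the share over all smORFs. EIF2S1 is the subunit whose phosphorylation starts the response. Its uORF IEC_00645 had 22 and 31 counts in undifferentiated cells and 8 and 7 in control cells, a log2 fold change of −1.89 ± 0.50 (adjusted p = 0.00757, edgeR), and IEC_00643 had 31 and 46 against 15 and 11, at −1.63 ± 0.44 (adjusted p = 0.00850). Those 2 frames overlap and share reads, and without undifferentiated replicate 2 or differentiated control replicate 2, 1 smORF of the list was called. The list had a median of −1.60.

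Targets of the response had 37 smORFs tested in 10 genes, of which 18 in 5 genes fell and 5 in 1 gene rose, which is 62.2% called, against 33.3% of all smORFs. Those that fell lay in GADD45A, PSPH, SHMT2, SLC3A2 and SLC7A11, and those that rose in DDIT4, an inhibitor of mTORC1 signalling. The uORF of SLC7A11, the cystine transporter, had 13 and 14 counts in undifferentiated cells and 0 and 5 in control cells, a log2 fold change of −2.51 ± 0.84 (adjusted p = 0.0260, edgeR). In SLC3A2, its partner chain, IEC_04244 had 24 and 23 against 4 and 5, at −2.45 ± 0.50 (adjusted p = 0.00115), and IEC_12344, which overlaps it, had 21 and 19 against 4 and 5, at −2.21 ± 0.51. With 1 smORF for each group of overlapping ones, 5 of 15 fell and 2 rose, or 46.7% called. Those called higher were 1 without undifferentiated replicate 1, 3 without differentiated control replicate 2, and 3 in the fit with a replicate block. The median over the 37 smORFs of the list, with overlapping frames counted separately, was −1.17.

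The list for ER protein folding had 22 smORFs tested in 10 genes. Of these, 3 fell and 0 rose, which is 13.6% called, against 33.3% of all smORFs. With 1 smORF for each group of overlapping ones, 3 of 12 fell and 0 rose, or 25.0% called. The 3 that fell lay in PDIA4, a disulfide isomerase, and in the chaperones HYOU1 and HSP90B1. The HSP90B1 smORF was also assigned to the microRNA gene MIR3652, and the origin of its reads was not tested. The PDIA4 uORF had 20 and 37 counts in undifferentiated cells and 4 and 8 in control cells, a log2 fold change of −2.35 ± 0.52 (adjusted p = 0.00208, edgeR), that of HYOU1 had 35 and 29 against 11 and 7, at −1.87 ± 0.45, and that of HSP90B1 had 81 and 147 against 47 and 33, at −1.56 ± 0.45. Without undifferentiated replicate 2, or without differentiated control replicate 2, 1 smORF of this list was called lower. The list median was −0.32.

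Other genes with regulatory uORFs had 24 smORFs tested in 9 genes. Of these, 5 rose, in NR3C1 and ERBB2, and 6 fell, in SLC7A1 and UCP2. That is 45.8% called, against 33.3% of all smORFs. With 1 smORF for each group of overlapping ones, 4 of 14 rose and 2 fell, or 42.9% called. In NR3C1, the glucocorticoid receptor, IEC_13197 had 0 and 2 counts in undifferentiated cells and 13 and 11 in control cells, and IEC_13198 had 9 and 2 in the former and 24 and 30 in the latter, with a log2 fold change of 2.20 ± 0.51 (adjusted p = 0.00284, edgeR). In SLC7A1, the cationic amino acid transporter, IEC_17422 had 26 and 12 against 1 and 3 and was called lower (adjusted p = 0.00390). Without undifferentiated replicate 2, 3 smORFs of this list were called higher. The list median was −0.36. In the 3 contrasts among differentiated cells, 0 smORFs of the 4 lists were called by edgeR without the block, where no smORF of any gene was.

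**Figure D5:**
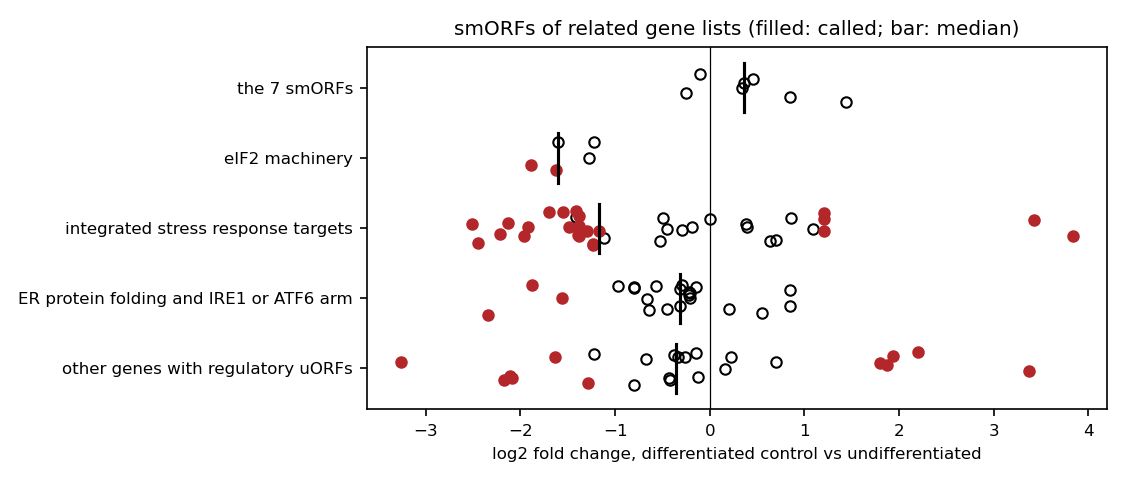
Log2 fold change between differentiated control and undifferentiated cells (x axis) of the 7 smORFs and of 4 gene lists (y axis, points spread at random within a row). Filled points were called by edgeR, open points were not, and bars are medians. The 7 smORFs are all open with a median of 0.37, and the median of the response targets is −1.17. Overlapping frames are separate points, also in the medians.

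The smORFs whose level ran most like that of IEC_16621 over the 8 libraries, among 1103 with at least 50 counts in each, were uORFs of LAMB3, NFE2L1 and SRSF5, with Pearson r of 0.98, 0.96 and 0.94 on log2 CPM. The LAMB3 frame had 74 and 102 counts in undifferentiated cells, 113 and 169 in control cells, 136 and 191 without lipid, and 236 and 286 with lipid. These r describe 8 points that share 4 groups and the same scaling, and they were picked as the highest of many.

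The cell type was checked by markers that carry a smORF. Of 10 epithelial markers 5 had smORFs, and their summed level was 663 to 817 CPM in undifferentiated and 1304 to 1461 CPM in differentiated libraries, and 6 of 10 enterocyte markers gave 1465 to 1871 and 3154 to 5594 CPM. The markers KRT18, KRT20, CDH1, CDX1, VIL1, ALPI, SI, FABP2 and SLC5A1 had no count, and such a 0 reflects the smORF list and not the gene. Of 7 markers of fibroblasts and endothelium, 4 had smORFs, with 51.5 to 67.6 CPM in undifferentiated and 0.0 to 4.15 CPM in differentiated libraries, and COL1A1, COL3A1, PDGFRB and CDH5 were at 0. The part of these shifts in the values of the 7 smORFs was not tested.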

How the data were processed

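The authors aligned Ribo-Seq reads to hg38 with STAR 2.7.11a, scored open reading frames of assembled transcripts with RibORF, kept those of up to 150 amino acids clear of known coding regions, and counted reads in each smORF with HOMER. The deposited table holds raw counts without normalization, and the deposited annotation holds RibORF and PhyloCSF scores, location classes and lengths. Whether the counting used strand, exons or multiply mapped reads is not given in the sources used here, so values of overlapping frames are uncertain. All per-library columns were mapped through the labels.

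The test was that of edgeR 4.0.16, run in R 4.3.3 (filterByExpr on the groups, TMM scaling, quasi-likelihood fit with a term per group over all 8 libraries), and p-values are two-sided, adjusted by Benjamini-Hochberg over 15182 smORFs. A call needed both an adjusted p below 0.05 and a log2 fold change of 1 or more in size. Standard errors came from the quasi-likelihood F statistic. CPM are relative to the TMM-scaled total. The limit for 0 counts is 3 counts a library. That limit and the Wilson intervals cover counting error alone, and duplicates are not resolved. The intervals of the fold changes also hold the spread between libraries that the fit estimated. DESeq2 1.42.0, RLE scaling, other filters, 1 smORF per overlap cluster, only 2 groups, each library left out and a replicate block were tried. ATG frames were read from GENCODE 44 transcripts. Python 3.11.15 and matplotlib 3.10.9 made tables and plots.

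The genes and lists were chosen with earlier results of these data known. Every smORF of the 7 genes with at least 10 counts in 1 library is given with all its values, and per list the 3 called smORFs with the largest change and at least 10 counts in both libraries of the higher group are named. Deviations from the group mean correlated at 0.198, 0.119 and 0.109 between equally numbered libraries of the differentiated groups. The values against undifferentiated cells, −0.065 to 0.021, gave no pairing. The main fit had no replicate term, so all reported fold changes and intervals are unpaired. Pairing by number entered the replicate block alone. In the differentiated groups the larger total was always that of replicate 2. Markers of immune cells are not reported here.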

Additional observations from a re-analysis of the deposited data

How the results depend on the processing

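Over all smORFs, the 5060 calls with differentiation became 1562 with at least 10 counts in every library, 2309 with 1 smORF per overlap cluster (fewer smORFs tested in both), 3301 with DESeq2, and 3603 to 5610 when 1 library was left out. Without the low-count filter 36, 4 and 23 smORFs were called for micelles without lipid, lipid micelles and the contrast between them, and DESeq2 called 2 in the first of these. With the replicate block, which pairs the differentiated libraries by number, 15, 1 and 14 were called, none of them one of the 7, and leaving out 1 library gave 0 to 25, 0 and 0 to 1. The cause was not tested. Among the 7 smORFs, 0 were called in any contrast unless 1 library was left out. Not all 7 were tested in each setting. With differentiation, the replicate block and the fit of only the 2 groups tested 6, without IEC_10715. At least 10 counts in every library left 5, and 1 smORF per overlap cluster left 4. The block thus changed no call among those it tested. Of 396 refitted fold changes of the 7, 390 stayed within 1 SE of the reported value, 5 moved farther and 1 became a call (IEC_10715). In 31 the sign turned, 29 of them of values under 0.15 in size. With totals in place of TMM, 24 of 28 group levels moved by less than their SD. Of the 7, 6 reached 20 counts in at least 1 library. Matched to MANE Select transcripts alone, 4 in place of 6 smORFs had the start and stop of a reference ATG frame, as the ATF5 pair lies on another transcript. With 4 counts or fewer in undifferentiated cells, depth limits what IEC_10715 can show.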
